A study of Mus musculus with 8 samples.

Results

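The 8 genes described here encode the proteins that bring selenium into the cell, activate it and insert it into protein as selenocysteine. They are Lrp8, Scly, Sephs2, Sephs1, Pstk, Sepsecs, Secisbp2 and Eefsec, taken by name for their roles, with earlier results of these data known. All 8 were found among the 24411 gene rows of the deposited count tables. The study sequenced polyadenylated RNA of A223 cells, a mouse line that the series title calls a squamous cell carcinoma. PRDX6 KD cells given 100 nM largazole for 18 h, PRDX6 KD cells in DMSO at 0 h, parental cells given 100 nM largazole for 18 h and parental cells in DMSO at 0 h had 2 libraries each, 8 in all. Largazole inhibits histone deacetylases, and PRDX6 is a peroxiredoxin, an enzyme that reduces peroxides, whose RNA was lowered in the KD cells. Drug and time changed together, so 18 h in culture and largazole cannot be told apart in any comparison of the drug with DMSO. The labels leave unsaid how the knockdown was made, whether the KD cells are 1 clone and whether a group's libraries came from separate cultures. A p-value here therefore reflects how far these libraries scatter, and that scatter may be technical.

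Selenocysteine is a cysteine with selenium in place of sulfur, and it is read from a UGA codon that elsewhere ends translation. Its tRNA is first charged with serine, which the kinase PSTK phosphorylates and SEPSECS converts to selenocysteine, using selenophosphate made by SEPHS2. SECISBP2 binds a hairpin in the untranslated end of selenoprotein mRNAs, and the elongation factor EEFSEC brings the charged tRNA to the ribosome. LRP8 is a receptor that takes up selenoprotein P, the plasma carrier of selenium, and SCLY frees the selenium again from selenocysteine. PRDX6 has been proposed as a carrier of selenium for selenoprotein synthesis.

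The libraries held 13020492 to 15613216 counts each. Prdx6 had 1040 and 962 counts in KD cells under largazole, 1315 and 1075 in KD cells in DMSO, 3774 and 3533 in parental cells under largazole, and 4016 and 4189 in parental cells in DMSO. Its log2 fold change, KD over parental, was -1.75 ± 0.11 (SE) under largazole and -1.81 ± 0.11 in DMSO. The KD libraries under largazole stood apart from each other more than other replicates did: the SD of their gene-by-gene log2 difference was 0.359, against 0.178 to 0.210 in the other groups. The ribosomal RNA precursor Rn45s was at 23915 and 742 CPM (counts scaled to library size) in these libraries. In KD cells in DMSO it was at 9963 and 2549 CPM. Parental cells had 7739 and 950 CPM under largazole and 1353 and 1212 CPM in DMSO, with replicate 1 first throughout. Of 10 keratinocyte markers, 6 reached 1 CPM in KD cells and 4 in parental cells under largazole, and 2 (Krt8 and Krt18) did so in either line in DMSO, where Trp63 and Epcam were at 0. Krt14 and Epcam, which reached it in both lines under largazole only, averaged 1.79 to 3.5 CPM there. The summed level of the 10 was 1326 to 1611 CPM in KD cells under largazole and 2298 to 2398 in KD cells in DMSO. It was 1167 to 1280 CPM in parental cells under largazole and 2003 to 2134 in parental cells in DMSO, mostly from Krt8. Of 8 fibroblast markers, 7 reached 1 CPM in every group, with a summed level of 4499 to 5151 CPM in KD cells under largazole, 5155 to 5234 in KD cells in DMSO, 3589 to 3647 in parental cells under largazole and 3583 to 3595 in parental cells in DMSO. No leukocyte marker of 6 reached 1 CPM in any group, and 2 of 4 endothelial markers did, with Kdr at 0. Most of the listed keratinocyte markers were thus under 1 CPM in DMSO, where Krt5, Krt14, Krt6a and Trp63 averaged 0.145 CPM or less. The part of these markers in the results below was not tested. In bulk RNA, fewer cells of a type and less RNA per cell cannot be told apart.

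All 8 genes were detected in every library and passed the filter on low counts. Genes were compared per kb of the transcript with the longest coding sequence, and other transcripts were not tried. By this measure, Sephs2 had the highest level of the 8 in every group, and Sepsecs the lowest. Sephs2 was at 22.7 ± 1.48 CPM per kb in KD cells under largazole, 38.3 ± 1.90 in KD cells in DMSO, 32.5 ± 1.39 in parental cells under largazole and 37.3 ± 1.53 in parental cells in DMSO (SD, n = 2 each). Sepsecs was at 0.823 ± 0.471, 0.745 ± 0.256, 0.930 ± 0.0867 and 0.9 ± 0.217 CPM per kb in the same order of groups. Lrp8 moved most in rank. It was the seventh of 8 in KD cells under largazole at 5.36 ± 0.631 CPM per kb and came after Sephs2 in KD cells in DMSO at 19.6 ± 0.613. In parental cells it was the fifth under largazole at 10.1 ± 0.515 and again next to Sephs2 in DMSO at 27.7 ± 0.911. In DMSO, neighbours in the order did not overlap in their libraries except Eefsec and Pstk in parental cells. Under largazole, the middle of the order could not be separated: Eefsec, Pstk and Sephs1 overlapped from one to the next in KD cells, as did Scly, Secisbp2 and Lrp8, and in parental cells Sephs1, Pstk, Lrp8 and Scly did.

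**Figure D1:**
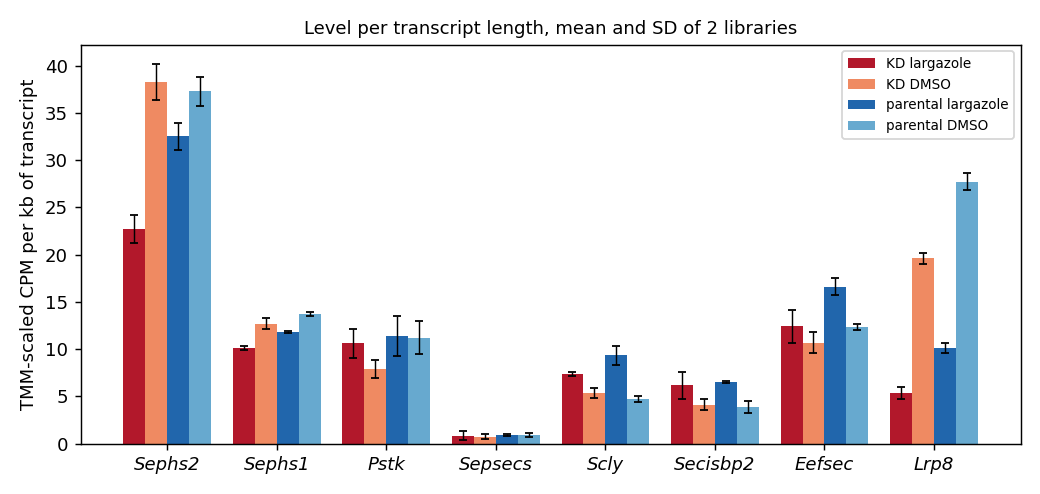
Level of the 8 genes in CPM per kb of transcript in each of the 4 groups, as bars at the mean with error bars of 1 SD (n = 2), KD cells left of parental cells and largazole left of DMSO. Sephs2 stands highest in every group, at 22.7 to 38.3 CPM per kb on average, and Sepsecs lowest, at 0.745 to 0.930, while Lrp8 lies far lower under largazole than in DMSO.

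The plainest result was a fall of Lrp8, the selenoprotein P receptor, which was lower under largazole in both lines and lower in KD than in parental cells under either condition. The other 7 genes had smaller log2 fold changes under largazole, and of both signs. In KD cells, largazole lowered Lrp8, Sephs2 and Sephs1 and raised Secisbp2 and Scly. These are 5 of 8 genes called at an adjusted p under 0.05, beside 48.2% of the 12517 genes tested (25.0% higher and 23.2% lower). In parental cells, largazole lowered Lrp8 and raised Scly, Secisbp2 and Eefsec, 4 of 8 genes beside 49.6% of all genes (26.9% higher and 22.7% lower). Both shares lie near the background, and nothing is read from them about the pathway. The test was edgeR's quasi-likelihood test on all 8 libraries, with Benjamini-Hochberg adjustment over all genes tested, and every adjusted p below comes from it unless another tool is named.

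Between the lines, 3 of 8 genes differed under largazole, where 18.3% of all genes were called, and all 3 (Lrp8, Sephs2 and Eefsec) were lower in KD cells, the direction of 9.81% of all genes. Of all genes, 8.51% were higher, and none of the 8. In DMSO, 1 of 8 differed, Lrp8, beside 11.0% of all genes, and it was lower in KD cells, as 4.02% of all genes were, while 7.01% were higher. The median log2 fold change of the 8 genes was 0.20 for largazole in KD cells and 0.036 in parental cells, against 0.010 and 0.029 over all genes tested. For KD over parental it was -0.29 under largazole and -0.16 in DMSO, against -0.0031 and 0.00 over all genes. Without Rn45s in the fit, the counts of the 8 genes called were again 5, 4, 3 and 1. The 4 comparisons share libraries in pairs, so their values are given side by side and no agreement between them is counted.

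**Figure D2:**
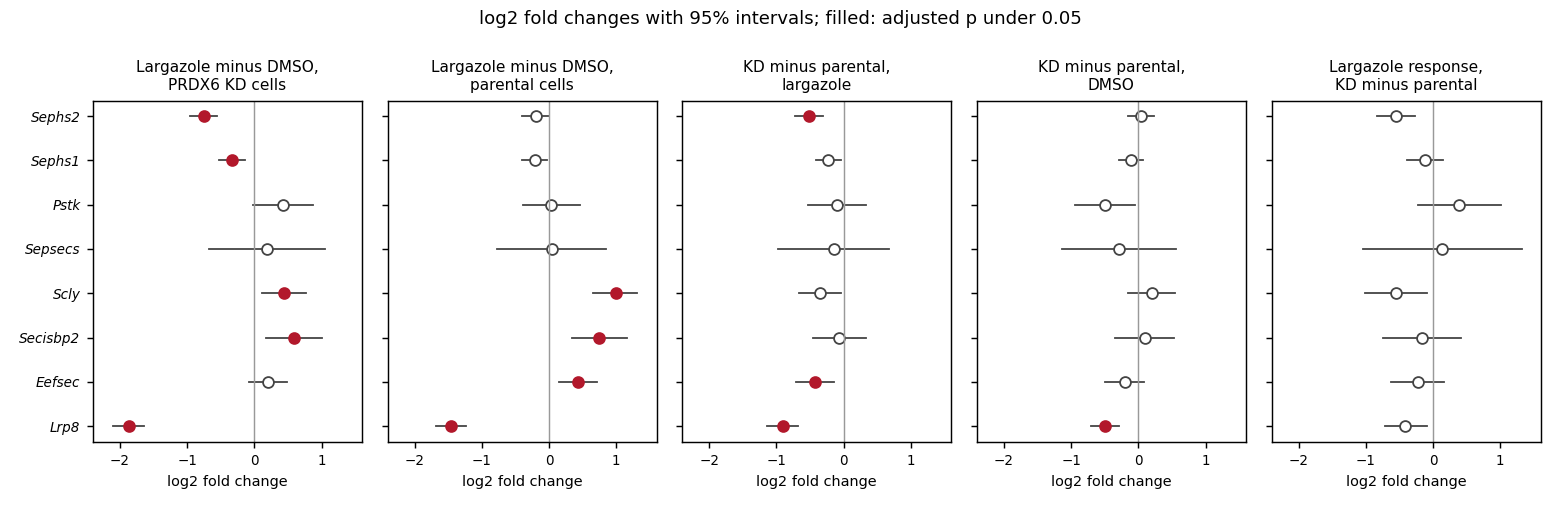
Log2 fold change of the 8 genes in the 4 comparisons and in the difference between the largazole responses, with 95% confidence intervals from the fit and filled points for an adjusted p under 0.05. The Lrp8 values, from -1.87 to -0.50 in the 4 comparisons, are all below 0 and called, and no gene is called in the difference between the responses.

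Lrp8 (ENSMUSG00000028613.14, chr4:107802261-107876840, plus strand, mm10) carries selenoprotein P into cells and is also a receptor for reelin in neurons. Its scaled levels were 22.4 and 26.4 CPM in KD cells under largazole and 87.3 and 91.2 CPM in KD cells in DMSO. In parental cells they were 44.2 and 47.5 CPM under largazole and 123 and 129 CPM in DMSO. The 4 groups did not overlap, with KD cells under largazole lowest and parental cells in DMSO highest. The log2 fold change for largazole was -1.87 ± 0.10 (SE) in KD cells, leaving 27.4% of the DMSO level (adjusted p = 8.42e-07). In parental cells it was -1.46 ± 0.10, leaving 36.3% (adjusted p = 2.51e-06). Both calls held in all 19 alternative settings. KD cells had 53.3% of the parental level under largazole (log2 -0.91 ± 0.10, adjusted p = 0.000439), also called in all 19 settings. In DMSO they had 70.7% (log2 -0.50 ± 0.10, adjusted p = 0.00867). That call was lost without any 1 of the 4 DMSO libraries, where the adjusted p was 0.105 and 0.0609 without KD replicates 1 and 2, and 0.0736 and 0.115 without parental replicates 1 and 2. The log2 fold change stayed between -0.55 and -0.47 in all 19 settings.

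Scly (ENSMUSG00000026307.12, chr1:91298338-91321075, plus strand) encodes selenocysteine lyase, which recovers selenium from selenocysteine. Largazole raised it in both lines. The libraries were at 15.8 and 16.5 CPM in KD cells under largazole and at 12.7 and 11.1 CPM in KD cells in DMSO. In parental cells they were at 19.1 and 22.1 CPM under largazole and 10.9 and 9.92 CPM in DMSO, and the libraries under largazole were above those in DMSO in both lines with no overlap. Largazole over DMSO was 0.44 ± 0.15 in log2 in KD cells (adjusted p = 0.0304) and 0.99 ± 0.15 in parental cells (adjusted p = 0.000371). The rise in parental cells was called in all 19 settings. The rise in KD cells was called in 14. It was lost with DESeq2 (adjusted p = 0.0691) and with the compared libraries alone in edgeR (adjusted p = 0.0832). It was also lost without KD DMSO replicate 1 or replicate 2 and without KD largazole replicate 2. KD over parental missed the threshold under largazole (log2 -0.35, 95% interval -0.66 to -0.039, adjusted p = 0.114) and in DMSO (0.20, -0.15 to 0.54, adjusted p = 0.489). Of its exon bases, 7.2% lie over an antisense gene, Gm17090, and no source used here names the strand setting of the counting.

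Sephs2 and Sephs1 encode the pair of selenophosphate synthetases. Only the SEPHS2 protein makes selenophosphate, and it is itself a selenoprotein, while SEPHS1 has no selenocysteine and no such activity in mammals. The stretch of codons around the selenocysteine codon of Sephs2 and the aligned stretch of Sephs1 show how the paralogs differ at that site. They are coding strand sequence of the GENCODE M21 transcripts, with 10 codons on each side and the codon in question in capitals.

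Sephs2: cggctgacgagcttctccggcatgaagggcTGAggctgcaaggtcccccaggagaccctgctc
Sephs1: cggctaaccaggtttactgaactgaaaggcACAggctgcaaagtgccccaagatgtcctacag

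In Sephs2 the codon is TGA, codon 63 of 452, at chr7:127273731-127273733 on the minus strand. In Sephs1 the aligned codon is codon 29 of 392 and reads ACA, for threonine. Over 391 aligned residues the proteins share 291, or 74.4%. No source used here says how reads that match more than 1 gene were counted.

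Sephs2 (ENSMUSG00000049091.6, chr7:127271879-127274055, minus strand, 1 exon) fell under largazole in KD cells. Its levels were 47.2 and 51.7 CPM in KD cells under largazole and 80.4 and 86.3 CPM in KD cells in DMSO. Parental cells had 72.9 and 68.7 CPM under largazole and 78.9 and 83.6 CPM in DMSO. The KD libraries under largazole were the lowest, with no overlap with any other group. That fall was -0.75 ± 0.092 in log2 (adjusted p = 0.000112), called in all 19 settings. In parental cells the value was -0.20 (95% interval -0.40 to 0.0022), with an adjusted p of 0.0917. That value passed the threshold in 3 of the 19 settings, among them without KD largazole replicate 1 (0.0269) or replicate 2 (0.0195). KD cells under largazole had a lower level than parental cells (log2 -0.52 ± 0.092, adjusted p = 0.00421). This call was lost in 1 setting, without parental largazole replicate 1 (adjusted p = 0.0514). In DMSO, KD over parental was 0.036 in log2 (-0.16 to 0.24, adjusted p = 0.862). Of the exon bases of Sephs2, 36.4% lie over Gm44729, an uncharacterised transcript of the other strand, and the part of its reads was not tested.

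Sephs1 (ENSMUSG00000026662.13, chr2:4881564-4910557, plus strand) moved less. It was at 53.0 and 54.6 CPM in KD cells under largazole, 69.9 and 65.4 CPM in KD cells in DMSO, 63.4 and 62.4 CPM in parental cells under largazole and 72.1 and 73.8 CPM in parental cells in DMSO. Libraries under largazole were below those in DMSO in both lines with no overlap. The fall was called in KD cells (log2 -0.33 ± 0.084, adjusted p = 0.00881) in 17 of 19 settings. It was lost with the compared libraries alone (adjusted p = 0.0675) and without KD DMSO replicate 1. In parental cells the value was -0.21 with an adjusted p of 0.0553, and it passed the threshold in 5 of 19 settings, among them without KD largazole replicate 1 (0.0175) or replicate 2 (0.0135). KD over parental was -0.23 under largazole (adjusted p = 0.0942) and -0.11 in DMSO (adjusted p = 0.48).

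Pstk and Sepsecs, whose proteins act in turn on the serine of the tRNA, were not called in any comparison. Pstk (ENSMUSG00000063179.13, chr7:131371141-131394482, plus strand) was at 13.2 and 10.9 CPM in KD cells under largazole and 9.68 and 8.18 CPM in KD cells in DMSO. Parental cells had 14.6 and 11.2 CPM under largazole and 14.0 and 11.3 CPM in DMSO. The KD libraries in DMSO were the lowest of the 8, and the other 3 groups overlapped. Largazole over DMSO was 0.42 in log2 in KD cells (95% interval -0.025 to 0.87, adjusted p = 0.109) and 0.032 in parental cells (adjusted p = 0.902). KD over parental in DMSO was -0.50 (-0.94 to -0.051, adjusted p = 0.154), and under largazole it was -0.10 (adjusted p = 0.761). Without KD largazole replicate 2, the largazole value in KD cells was 0.56 and passed the threshold (adjusted p = 0.0393).

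Sepsecs (ENSMUSG00000029173.12, chr5:52640087-52669708, minus strand) was the least abundant of the 8 and the least precise. It had 33 and 90 counts in KD cells under largazole, 45 and 66 in KD cells in DMSO, 67 and 79 in parental cells under largazole and 53 and 82 in parental cells in DMSO. All groups overlapped. The widest gap between replicates was in KD cells under largazole, at 2.57 and 6.07 CPM. Largazole over DMSO was 0.19 in log2 in KD cells with a 95% interval of -0.68 to 1.05, and 0.041 in parental cells with -0.77 to 0.85. For KD over parental it was -0.15 under largazole (-0.97 to 0.68) and -0.29 in DMSO (-1.14 to 0.56). These values leave room for any change within the intervals.

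Secisbp2 (ENSMUSG00000035139.14, chr13:51651697-51684044, plus strand), whose protein marks selenoprotein mRNAs for recoding, rose under largazole in both lines. It was at 17.1 and 23.9 CPM in KD cells under largazole and 12.4 and 15 CPM in KD cells in DMSO. Parental cells had 21.4 and 21.8 CPM under largazole and 14.3 and 11.5 CPM in DMSO. Each largazole library was above both DMSO libraries of its line, and the lines overlapped under either condition. In log2 terms the rise was 0.59 ± 0.19 in KD cells (adjusted p = 0.0242) and 0.75 ± 0.19 in parental cells (adjusted p = 0.00745). The call in KD cells was lost with the compared libraries alone (adjusted p = 0.0611) and without KD DMSO replicate 1. It was also lost without KD largazole replicate 2, where the value was 0.32. Without KD largazole replicate 1 the value was 0.80. The call in parental cells was lost without parental DMSO replicate 2 (adjusted p = 0.0887). For KD over parental the value was -0.067 under largazole (95% interval -0.46 to 0.33) and 0.094 in DMSO (-0.34 to 0.53).

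Eefsec (ENSMUSG00000033216.9, chr6:88257334-88446539, minus strand), the elongation factor for the selenocysteine tRNA, rose under largazole in parental cells. Its levels were 36.6 and 29.8 CPM in KD cells under largazole, 30.8 and 26.5 CPM in KD cells in DMSO, 46.3 and 42.8 CPM in parental cells under largazole and 32.4 and 33.6 CPM in parental cells in DMSO. Parental libraries under largazole were the highest, with no overlap with any other group. That rise was 0.43 ± 0.13 in log2 (adjusted p = 0.016). This was lost without parental DMSO replicate 1 (adjusted p = 0.109) or replicate 2 (0.0768) and without parental largazole replicate 1 (0.106). In KD cells the value was 0.21 (95% interval -0.078 to 0.49, adjusted p = 0.207). It was 0.051 without KD largazole replicate 1 and 0.35 without replicate 2, where it passed the threshold (adjusted p = 0.0259). KD cells under largazole were lower than parental cells (log2 -0.43 ± 0.13, adjusted p = 0.0403), but this call held in only 9 of 19 settings, with an adjusted p of up to 0.212. Without KD largazole replicate 2 the value was -0.28 (adjusted p = 0.0797). An antisense gene, Gm44264, covers 11.5% of its exon bases.

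**Figure D3:**
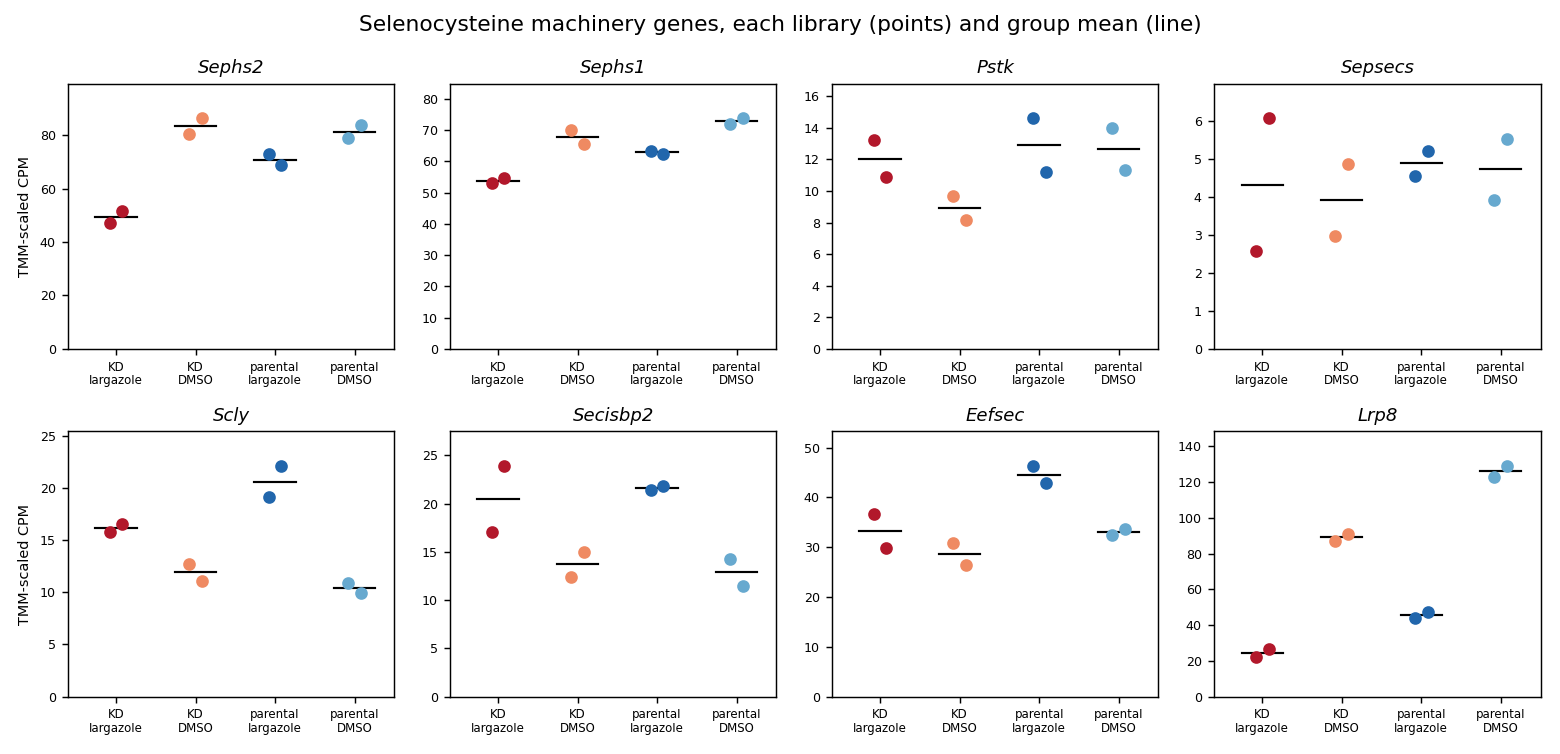
Scaled level (CPM) of each of the 8 genes in the 8 libraries, 1 panel a gene, with KD cells left of parental cells and largazole left of DMSO in each line, points for libraries and a line at the group mean. Lrp8 separates all 4 groups, from 22.4 CPM in the lowest KD library under largazole to 129 CPM in the highest parental library in DMSO, while the Sepsecs groups overlap.

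The promoters of the 2 genes called higher under largazole in both lines, Scly and Secisbp2, and of the 2 with the largest falls in KD cells, Lrp8 and Sephs2, are given below. They are RefSeq windows of the GRCm38.p6 assembly, from 250 bases before to 50 bases after an annotated start, on the strand of the gene. Lrp8 has 3 such windows. The one shown is nearest to the start of the gene, but RefSeq's start there lies downstream of the GENCODE start, so the whole window is inside the gene as GENCODE annotates it, and bases before the GENCODE start were not searched. Capitals mark matches on either strand to the GC box (GGGCGG), the CCAAT box (CCAAT), the TATA box (TATAAA) and the E-box (CACGTG), and no matches overlap.

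Scly: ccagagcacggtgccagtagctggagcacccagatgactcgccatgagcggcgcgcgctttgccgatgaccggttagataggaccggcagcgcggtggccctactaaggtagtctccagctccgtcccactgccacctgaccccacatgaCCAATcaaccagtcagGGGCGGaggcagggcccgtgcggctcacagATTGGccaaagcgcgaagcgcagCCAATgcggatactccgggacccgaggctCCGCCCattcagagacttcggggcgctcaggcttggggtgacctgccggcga
Secisbp2: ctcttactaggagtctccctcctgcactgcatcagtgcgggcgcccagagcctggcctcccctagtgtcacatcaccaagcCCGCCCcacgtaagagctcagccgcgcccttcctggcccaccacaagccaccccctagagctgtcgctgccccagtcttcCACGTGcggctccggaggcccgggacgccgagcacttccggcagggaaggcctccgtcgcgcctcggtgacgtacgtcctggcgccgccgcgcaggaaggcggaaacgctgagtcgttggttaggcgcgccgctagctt
Lrp8: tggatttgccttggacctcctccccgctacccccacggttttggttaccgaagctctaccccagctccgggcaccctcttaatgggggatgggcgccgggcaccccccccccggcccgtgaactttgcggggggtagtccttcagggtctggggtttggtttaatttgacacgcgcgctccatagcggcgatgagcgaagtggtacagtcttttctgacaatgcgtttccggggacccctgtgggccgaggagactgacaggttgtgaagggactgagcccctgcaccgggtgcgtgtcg
Sephs2: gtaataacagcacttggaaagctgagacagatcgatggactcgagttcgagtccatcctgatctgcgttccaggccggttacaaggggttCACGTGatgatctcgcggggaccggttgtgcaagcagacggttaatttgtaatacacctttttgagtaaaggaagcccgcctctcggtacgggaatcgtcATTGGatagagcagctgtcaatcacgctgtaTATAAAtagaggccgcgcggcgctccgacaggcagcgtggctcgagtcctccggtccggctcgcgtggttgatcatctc

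The Scly window (chr1:91298088-91298387, plus strand) holds 2 GC boxes and 3 CCAAT boxes. The Secisbp2 window (chr13:51651458-51651757, plus strand) holds 1 GC box and 1 E-box. The Lrp8 window (chr4:107802635-107802934, plus strand) holds none of the 4 motifs, which says only that these letters are not in it. The Sephs2 window (chr7:127274010-127274309, minus strand) holds 1 CCAAT box, 1 TATA box and 1 E-box. Of 32851 promoter windows of the same length, 35.7% hold a GC box, 37.4% a CCAAT box, 13.6% a TATA box and 7.15% the E-box. These are shares of windows with at least 1 match, so holding a GC box or a CCAAT box is common. Windows with several matches, as for Scly, were not counted. A match is a description of the sequence and not evidence of a bound factor.

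Whether largazole acted differently in the KD than in the parental line was tested as a difference of the responses. No gene of the 8 was called, beside 0.208% of all genes, and DESeq2 and limma-voom also called 0 of 8. At an unadjusted p under 0.05 there were 3, beside 8.68% of all genes. Sephs2 had the clearest value: the log2 response in KD cells minus that in parental cells was -0.55, with a 95% interval of -0.84 to -0.27 (unadjusted p = 0.00154, adjusted p = 0.154). For Lrp8 the difference was -0.41 (-0.72 to -0.093, adjusted p = 0.433) and for Scly -0.55 (-1.01 to -0.083, adjusted p = 0.478). Over the other 5 genes the difference ran from -0.23 for Eefsec to 0.39 for Pstk. The values of Sephs2, Lrp8 and Scly were negative in all 18 alternatives, and with 1 of the KD libraries under largazole left out, 1 or 2 genes passed the threshold. Without replicate 1 of these the Sephs2 difference was -0.49 (adjusted p = 0.0387), and without replicate 2 it was -0.61 (adjusted p = 0.0129) and that of Lrp8 -0.52 (adjusted p = 0.0375).

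By likeness over the 8 libraries, taken as Pearson's r of log2 CPM against 10182 candidate genes, the closest to Lrp8 were Brca1, a DNA repair gene, and Mcm10, a replication factor, both at an r of 0.999. Brca1 was at 30.5 and 32.9 CPM in KD cells under largazole, 72.7 and 76.5 in KD cells in DMSO, 47.8 and 48.1 in parental cells under largazole and 90.7 and 94.5 in parental cells in DMSO, the same order of groups as Lrp8. Mcm10 had 6.31 and 7.69, 27.8 and 27.8, 12.6 and 13.6, and 38.3 and 38.9 CPM in that order. The closest to Sephs2 were Mb21d1 (r = 0.987), the cytosolic DNA sensor also called cGAS, and Lrrc40 (0.983). For Sephs1 they were Prpf3 (0.993) and Gins3 (0.990), for Scly Zfhx2 (0.985) and Ptger4 (0.981), for Secisbp2 Fbxl18 (0.983), and for Eefsec Nif3l1 (0.980) and Jund (0.971). The 8 points of each r share the group means and the libraries, so these values are a description.

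The genes that use the machinery are the selenoproteins. All 24 mouse genes with a selenocysteine codon in GENCODE M21 were listed, Sephs2 among them. A row was found for 22 in the deposited counts, 10 of them under an older symbol, and 19 were tested, since Dio1, Dio3 and Gpx2 had 0 counts in every library. Under largazole, 7 rose and 8 fell in KD cells, and 7 rose and 5 fell in parental cells, with a median log2 fold change of -0.16 and 0.021. Of all genes tested, 25.0% rose and 23.2% fell in KD cells, and 26.9% and 22.7% in parental cells. For KD over parental, 2 were higher and 4 lower under largazole, and 2 were higher and 2 lower in DMSO, with medians of -0.072 and 0.036, beside 18.3% of all genes called in either direction under largazole and 11.0% in DMSO. The selenoprotein mRNAs thus did not move one way in any of the 4 comparisons.

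**Figure D4:**
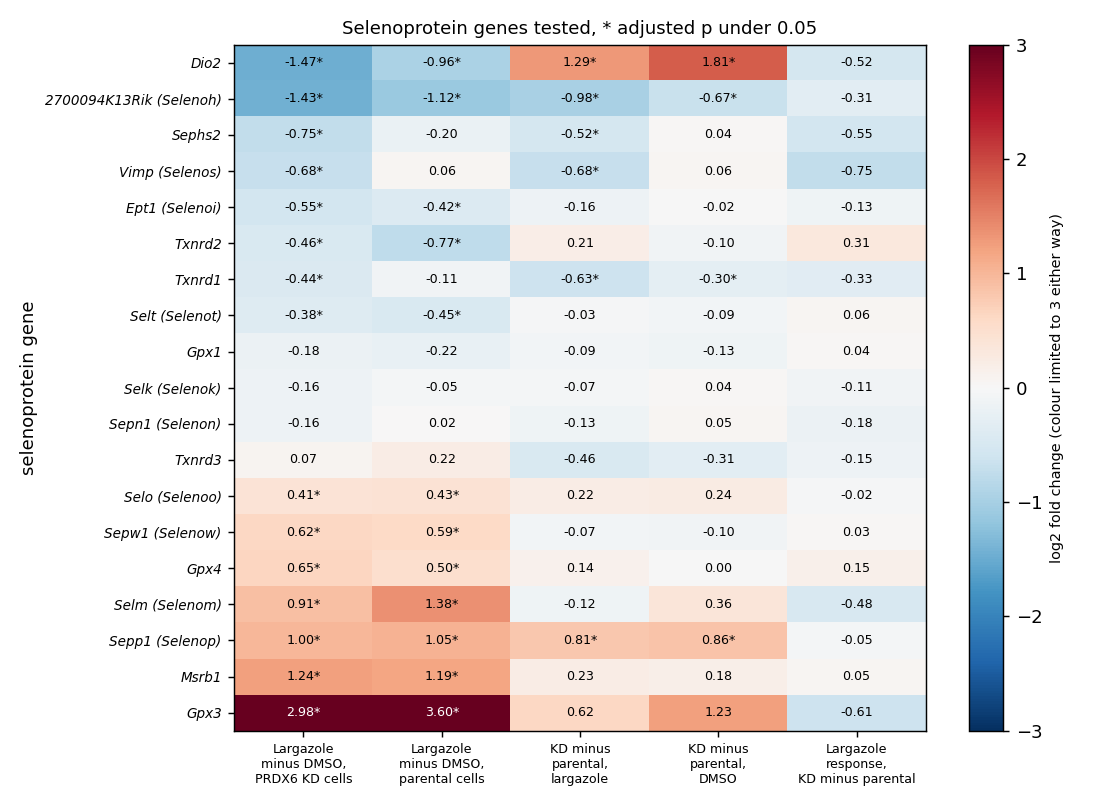
Log2 fold changes of the 19 selenoprotein genes tested, in the 4 comparisons and in the difference between the largazole responses, with asterisks for an adjusted p under 0.05. Genes are ordered by the largazole value in KD cells, from -1.47 for Dio2 to 2.98 for Gpx3, and rises and falls stand side by side in every column.

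Selenop, the ligand of LRP8 (listed as Sepp1), rose under largazole in both lines and was higher in KD than in parental cells. It was at 58.0 and 53.1 CPM in KD cells under largazole, 28.6 and 26.7 CPM in KD cells in DMSO, 29.9 and 33.3 CPM in parental cells under largazole and 13.5 and 16.9 CPM in parental cells in DMSO. KD cells under largazole were the highest and parental cells in DMSO the lowest. The log2 fold change for largazole was 1.00 ± 0.13 in KD cells and 1.05 ± 0.13 in parental cells (adjusted p = 0.000131 and 0.000148). For KD over parental it was 0.81 ± 0.12 under largazole and 0.86 ± 0.14 in DMSO (adjusted p = 0.00191 and 0.00294). The last was lost without parental DMSO replicate 1 (0.70, adjusted p = 0.0532).

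Dio2, the deiodinase that activates thyroid hormone, fell under largazole and was higher in KD cells. It was at 14.7 and 16 CPM in KD cells under largazole, 45.3 and 39.7 CPM in KD cells in DMSO, 5.72 and 6.79 CPM in parental cells under largazole and 12.7 and 11.6 CPM in parental cells in DMSO. Largazole over DMSO was -1.47 ± 0.13 in KD and -0.96 ± 0.16 in parental cells (log2, adjusted p = 1.6e-05 and 0.00083). KD over parental was 1.29 ± 0.16 under largazole and 1.81 ± 0.14 in DMSO (adjusted p = 0.000598 and 4.4e-05), and all 4 calls held in the 19 settings. Selenoh (2700094K13Rik), a nuclear selenoprotein, fell under largazole and was lower in KD cells. It had 16.4 and 10 CPM in KD cells under largazole, 37.3 and 33.4 in KD cells in DMSO, 27.6 and 24.1 in parental cells under largazole and 52.9 and 59.5 in parental cells in DMSO, with no overlap between groups. Its log2 fold changes for largazole were -1.43 ± 0.19 in KD and -1.12 ± 0.18 in parental cells, and for KD over parental -0.98 ± 0.20 under largazole and -0.67 ± 0.17 in DMSO. The call in DMSO (adjusted p = 0.0356) was lost without 6 of the 8 libraries in turn, with an adjusted p of up to 0.244. The call under largazole was lost without parental largazole replicate 1 (adjusted p = 0.0695).

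Txnrd1, cytosolic thioredoxin reductase, was at 181 and 201 CPM in KD cells under largazole, 257 and 260 CPM in KD cells in DMSO, 292 and 301 CPM in parental cells under largazole and 320 and 318 CPM in parental cells in DMSO. The KD libraries were the lower ones under either condition. KD over parental was -0.63 ± 0.075 under largazole (log2, adjusted p = 0.00054) and -0.30 ± 0.075 in DMSO (adjusted p = 0.0294). The value in DMSO lost its call without any 1 of 6 libraries, with an adjusted p of up to 0.206. Largazole lowered Txnrd1 in KD cells (log2 -0.44 ± 0.075, adjusted p = 0.00101), and in parental cells the value was -0.11 (adjusted p = 0.266). Selenos (Vimp), a protein of endoplasmic reticulum degradation, was at 40.4 and 32.6 CPM in KD cells under largazole and between 55.2 and 61.0 CPM in the other 6 libraries. Its log2 fold change was -0.68 ± 0.11 both for largazole in KD cells (adjusted p = 0.00078) and for KD over parental under largazole (adjusted p = 0.00294), and the difference of its responses was -0.75 (adjusted p = 0.14). Txnrd2, the mitochondrial reductase, fell under largazole, with log2 fold changes of -0.46 ± 0.15 in KD and -0.77 ± 0.15 in parental cells (adjusted p = 0.0284 and 0.00197). Its call in KD cells was lost in 7 settings, among them without KD DMSO replicate 1 (adjusted p = 0.203).

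The selenoproteins that rose most under largazole were Gpx3, Msrb1, Selenom (Selm) and Selenop. Gpx3, a secreted glutathione peroxidase, had 79 and 51 counts in KD cells under largazole, 12 and 5 in KD cells in DMSO, 58 and 34 in parental cells under largazole and 5 and 2 in parental cells in DMSO. Its log2 fold change was 2.98 ± 0.51 in KD and 3.6 ± 0.66 in parental cells (adjusted p = 0.000933 and 0.00146), from low counts. Over the 19 settings it ranged from 2.52 to 3.65 in KD cells, highest without KD DMSO replicate 1. In parental cells it ranged from 3.02 to 4.41, highest without parental DMSO replicate 1. Msrb1, a methionine sulfoxide reductase, rose by 1.24 ± 0.24 and 1.19 ± 0.25 (adjusted p = 0.00215 and 0.003), and Selenom by 0.91 ± 0.19 and 1.38 ± 0.20 (adjusted p = 0.00326 and 0.000279), each in KD and then in parental cells. Gpx4, the peroxidase that guards against ferroptosis, was picked after its values were seen. It was at 375 and 261 CPM in KD cells under largazole, 200 and 205 CPM in KD cells in DMSO, 304 and 273 CPM in parental cells under largazole and 205 and 201 CPM in parental cells in DMSO. Largazole raised it by 0.65 ± 0.14 in KD and 0.50 ± 0.14 in parental cells (log2, adjusted p = 0.00364 and 0.0131), and the call in parental cells was lost without either parental DMSO library (adjusted p = 0.0662 and 0.079) or parental largazole replicate 1 (0.0955). Between the lines it differed by 0.14 under largazole (KD over parental, adjusted p = 0.529) and -0.0021 in DMSO (95% interval -0.31 to 0.31).

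Of 12 listed proteins that bind selenoprotein mRNAs or act with the machinery, none was called higher in any comparison. Of all genes, 25.0% were higher for largazole in KD cells and 26.9% in parental cells. For KD over parental, 8.51% of all genes were higher under largazole and 7.01% in DMSO. Largazole lowered Ncl, Xpo1, Eif4a3 and Elavl1 in both lines, beside 23.2% and 22.7% of all genes, and in parental cells also Rpl30, whose call was lost without any 1 of 3 libraries (adjusted p of up to 0.145). Nucleolin (Ncl), which binds the hairpins of selenoprotein mRNAs, was at 624 and 586 CPM in KD cells under largazole, 982 and 942 CPM in KD cells in DMSO, 737 and 748 CPM in parental cells under largazole and 1291 and 1247 CPM in parental cells in DMSO. The 4 groups did not overlap. Its log2 fold change for largazole was -0.67 ± 0.070 in KD and -0.77 ± 0.070 in parental cells (adjusted p = 4.33e-05 and 1.72e-05). It was the only one of the 12 called between the lines, at -0.29 under largazole (adjusted p = 0.0174) and -0.40 in DMSO (adjusted p = 0.00565), beside 18.3% and 11.0% of all genes. Each of these 2 calls was lost without any 1 of 4 libraries. The call under largazole was also lost with the compared libraries alone (adjusted p = 0.153). The largazole values of the exportin Xpo1 were -0.51 and -0.41, of the helicase Eif4a3 -0.48 and -0.36, and of the RNA-binding protein Elavl1 -0.40 and -0.42, in KD and then in parental cells. The Eif4a3 call in parental cells was lost without parental DMSO replicate 2 (adjusted p = 0.0692) or parental largazole replicate 2 (0.0747).

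Of 10 listed genes of selenium and sulfur amino acid metabolism, 7 were tested, and Lrp2, Selenbp2 and Inmt had too few counts. Largazole raised 3 and lowered 3 in KD cells, and raised 4 and lowered 3 in parental cells, where 48.2% and 49.6% of all genes were called. KD cells were higher in 1 and lower in 4 under largazole, and lower in 1 in DMSO, beside 18.3% and 11.0% of all genes. Cth, cystathionine gamma-lyase, was at 6.55 and 4.18 CPM in KD cells under largazole, 27.0 and 24.7 CPM in KD cells in DMSO, 15.3 and 14.0 CPM in parental cells under largazole and 48.3 and 46.6 CPM in parental cells in DMSO. The groups did not overlap and had the same order as those of Lrp8. Its log2 fold change was -2.28 ± 0.18 and -1.70 ± 0.15 for largazole in KD and in parental cells, and -1.46 ± 0.19 and -0.88 ± 0.15 for KD over parental under largazole and in DMSO. The last call (adjusted p = 0.00417) was lost without parental DMSO replicate 1 (0.0545) or KD DMSO replicate 2 (0.0518).

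Slc7a11, a cystine importer, was at 7.64 and 8.02 CPM in KD cells under largazole, 37.1 and 37.7 CPM in KD cells in DMSO, 13.8 and 16.7 CPM in parental cells under largazole and 28.5 and 32.4 CPM in parental cells in DMSO. The log2 fold change for largazole was -2.25 ± 0.14 in KD and -1.0 ± 0.13 in parental cells (adjusted p = 1.76e-06 and 0.000188). The difference of these responses, -1.26 ± 0.20, was the only one called among all the listed genes (adjusted p = 0.0402), and it lost its call in 9 of 18 settings, among them without any 1 of the 6 libraries other than KD cells under largazole (adjusted p of up to 0.37). KD over parental was -0.96 ± 0.15 under largazole (adjusted p = 0.00223) and 0.30 ± 0.12 in DMSO (adjusted p = 0.171). Ahcy, adenosylhomocysteinase, was at 189 and 172 CPM in KD cells under largazole, 346 and 358 CPM in KD cells in DMSO, 225 and 220 CPM in parental cells under largazole and 397 and 402 CPM in parental cells in DMSO. Its log2 fold change for largazole was -0.97 ± 0.075 in KD and -0.85 ± 0.074 in parental cells. KD over parental was -0.30 ± 0.074 under largazole (adjusted p = 0.0198). This call was lost with the compared libraries alone (adjusted p = 0.146) and without any 1 of the 4 parental libraries. Cbs, cystathionine beta-synthase, had 60 and 45 counts in KD cells under largazole, 0 and 0 in KD cells in DMSO, 62 and 69 in parental cells under largazole and 1 and 1 in parental cells in DMSO, and no fold is given against such low counts. The other genes called in at least 1 comparison were Selenbp1, Tpmt and Mat2a. The rise of Mat2a in parental cells was lost with RLE scaling (adjusted p = 0.0503) and with no filter on low counts (0.0922). It was also lost without any 1 of 6 libraries. The higher level of Selenbp1 in KD cells under largazole was lost with DESeq2 (adjusted p = 0.0689) and without either parental largazole library.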

How the data were processed

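Gene counts of 8 libraries of polyadenylated RNA were analysed as the authors deposited them. Libraries were made with a directional kit, per the labels' protocols, and the submitters' processing notes name the mm10 build. No source used here names the aligner, the annotation or the strand setting. Values are estimated counts, deposited by the authors per gene and library: 2.499 to 2.835% of each library's values are not whole, and all were rounded. Of 24411 rows, 27 carry a date for a symbol and were left unnamed.

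Genes were kept by filterByExpr (minimum count 10), scaled by TMM and fitted with 1 mean per group by edgeR 4.0.16 (quasi-likelihood F test) in R 4.3.3. Benjamini-Hochberg adjustment covered the 12517 genes tested. A gene was called at an adjusted p under 0.05. The common coefficient of biological variation was 0.0946. SEs were computed from the log2 fold change and its F value. Depth was 13020492 to 15613216 counts per library. Sepsecs, with few counts and with replicates far apart in KD cells under largazole, had wide intervals. The parts of depth and of scatter between libraries in them were not tested. Levels are TMM-scaled CPM, and levels per kb use the protein-coding transcript with the longest coding sequence in GENCODE M21. The fitting steps were tested on simulated data.

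The 8 genes and the other lists were chosen with earlier results of these data known. Named in the text were the 8 genes and Prdx6, and selenoproteins called between the lines or among the 3 largest called rises and falls under largazole. Cofactor and metabolism genes were named when called, with values for up to 4 a list by smallest unadjusted p. For each of the 8 genes called in any comparison, the 2 genes of at least 5 CPM with the highest Pearson r of log2 CPM were named, except 1 for Secisbp2 that is not reported here. Alternative settings used upper-quartile or RLE scaling, unscaled library totals, no filter, a stricter filter, DESeq2 1.42.0, limma-voom (limma 3.58.1), the compared libraries alone, the replicate number as a block, a fit without Rn45s, each library left out, and the older quasi-likelihood method, which was added after seeing the data. Where a library was left alone in its group, the adjusted p values assume that it varies like the others. Sequences came from RefSeq (GRCm38.p6) and GENCODE M21, and RefSeq holds no Sepsecs promoter window here.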

Additional observations from a re-analysis of the deposited data

Results flagged for a closer look

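The response of Slc7a11 to largazole differed between the lines by the test of the difference itself. It was lower in KD than in parental cells by a log2 difference of -1.26 ± 0.20 (edgeR, adjusted p = 0.0402), from responses of -2.25 in KD and -1.0 in parental cells, and both KD libraries under largazole were below both parental ones. Over 18 alternative settings the difference lay between -1.39 and -1.08, and the adjusted p between 0.00103 and 0.37.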

How the results depend on the processing

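Over the 8 genes, 687 values under the alternatives kept their direction and side of the threshold, 29 fell short of it, 16 newly passed it and 20 changed sign. All sign changes came from leaving out 1 library, and no such value was called. The cause of the changes was not tested. With the compared libraries alone, genes of the 8 called were 2 for largazole in KD cells, 6 in parental cells and 2 for KD in DMSO (main 5, 4 and 1), and all genes called were 965 for KD under largazole and 3266 for KD in DMSO. The labels do not say that replicate numbers pair the libraries. The correlation of same-numbered deviations was over 0.1 in 4 of 6 pairs of groups (range -0.00767 to 0.364). The highest, 0.273 to 0.364, were among KD cells under either condition and parental cells under largazole. In these groups Rn45s was far higher in replicate 1 than in replicate 2, and what the same-numbered libraries share was not tested. The correlation was not over 0.1 in all pairs, so the numbers were not taken as pairs, which does not show that they share nothing. With the replicate block, 2 of the 8 genes were called for KD in DMSO, where Pstk was added (adjusted p = 0.04), and Sephs1 in parental cells (0.0436) and Pstk in KD cells (0.0294) passed for largazole. In the difference of responses, the block called 1 selenoprotein and 104 genes in all, and DESeq2 called 1 and 83.

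Leaving out 1 library, genes of the 8 called ranged from 2 to 5 for largazole in KD cells (main 5), 2 to 6 in parental cells (main 4), 1 to 3 for KD under largazole (main 3), 0 to 1 for KD in DMSO (main 1) and 0 to 2 for the difference (main 0). Selenoproteins called ranged from 4 to 11 for KD under largazole (main 6), 1 to 5 for KD in DMSO (main 4) and 0 to 4 for the difference (main 0). All genes called ranged from 837 to 4175 (main 2293), 398 to 2969 (main 1380) and 2 to 457 (main 26). The highest counts for KD under largazole and for the difference came without KD largazole replicate 2. The counts of all genes called moved too, here and with the compared libraries alone. The changes in the counts of the 8 genes are therefore not read as a result about these genes.

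The log2 values that changed sign ranged as follows. Sephs2 ranged from -0.02 to 0.086 for KD in DMSO. Pstk ranged from -0.18 to 0.19 for largazole in parental cells and -0.27 to 0.10 for KD under largazole. Sepsecs ranged from -0.59 to 0.64 for largazole in KD cells, -0.20 to 0.30 in parental cells, -0.92 to 0.31 for KD under largazole, -0.68 to 0.034 for KD in DMSO and -0.61 to 0.61 for the difference. Secisbp2 ranged from -0.33 to 0.15 for KD under largazole, -0.067 to 0.25 for KD in DMSO and -0.41 to 0.054 for the difference. Prdx6 ranged from -0.11 to 0.22 for the difference. These are ranges of point values over the settings and not limits of detection. With 2 libraries a group, the 95% intervals of the main fit can be wider, as for Sephs2 in DMSO (KD over parental, -0.16 to 0.24).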
